A study of Mus musculus with 6 samples.

Results

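The proteasome genes of the mouse were taken from the deposited count table as every protein-coding gene whose symbol starts with Psma, Psmb, Psmc, Psmd, Psme, Psmf or Psmg. The rule gave 52 gene records under 50 symbols, out of 37576 genes in the table, of which 22656 were protein-coding. It used symbols and gene types, and no measured value. The libraries are RNA-seq of whole fetal liver, harvested as single-cell suspensions at embryonic day 12.5 from C57BL/6 mice. The 3 E861A livers, numbered 6, 16 and 19, carried the Adar1E861A/E861A genotype and were all male. The 3 wild-type livers were number 2, a male, and numbers 15 and 17, both female. E861A is a point mutation that removes the RNA-editing activity of ADAR1, the enzyme that turns adenosine into inosine in double-stranded RNA. In bulk liver RNA, fewer cells of a type and less RNA per cell cannot be told apart.

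The proteasome degrades ubiquitin-tagged proteins. Its 20S core is a barrel of alpha and beta rings with the cutting sites on the beta 1, beta 2 and beta 5 subunits, and the 19S cap unfolds the substrate and feeds it in. In immune cells and under interferon, the inducible subunits Psmb9, Psmb10 and Psmb8 take the places of Psmb6, Psmb7 and Psmb5 in newly built cores, and the activator PA28, made of Psme1 and Psme2, docks on the barrel. The peptides that result are carried into the endoplasmic reticulum and loaded on MHC class I molecules. Fetal liver at this age is the main site of blood formation and is rich in erythroid cells.

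The libraries held 35280460 to 43733715 counted reads. Adar itself had 274.9, 344.5 and 333.8 CPM (counts scaled to library size with edgeR's TMM factors) in E861A livers 6, 16 and 19, against 56.7, 79.0 and 57.3 CPM in wild-type livers 2, 15 and 17. A point mutation leaves the transcript in place, so this level does not check the labels. Fisher's exact test on reads summed per genotype was run on 3883 editing sites with enough reads. At a Benjamini-Hochberg adjusted p under 0.05, 647 sites had less editing in E861A livers and 6 had more. Among the 16511 genes tested with edgeR's quasi-likelihood test and Benjamini-Hochberg adjustment, with an adjusted p under 0.05 as the threshold, 1283 were higher in E861A livers and 703 were lower. These counts were 530 higher and 39 lower with sex as a covariate, and 301 and 8 in male livers alone. They were 515 and 150 without E861A liver 16, 978 and 512 without E861A liver 19, 1062 and 502 without E861A liver 6, 1737 and 1502 without wild-type liver 2, 795 and 197 without wild-type liver 15, and 555 and 95 without wild-type liver 17. Pearson's r of log2 CPM was 0.963 to 0.99 between livers of the same genotype and 0.924 to 0.956 between genotypes.

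Of the 52 proteasome records, 48 had enough reads to be tested, each under its own symbol. The inducible core subunits Psmb8 and Psmb10, the PA28 subunits Psme1 and Psme2, the Psme2 retrocopy Psme2b-ps and the core assembly chaperone Psmg4 were higher in E861A livers. The nuclear activator Psme3 and the activator PA200, encoded by Psme4, were lower. These 6 of 48 higher genes stand beside 7.77% of all genes tested, and the 2 of 48 lower genes beside 4.26%. The median log2 fold change over the 48 genes was -0.00, against 0.04 over all genes tested. It was 0.22 with sex as a covariate and 0.23 in male livers alone, where all genes were at 0.02, and -0.16 without E861A liver 6 and -0.15 without wild-type liver 2. Without the inducible subunits, Psme1, Psme2 and Psme2b-ps, the other 43 genes had a median of -0.08, with 1 higher and 2 lower. Counting libraries alone, 6 of the 48 genes had all 3 E861A livers above all 3 wild-type livers, beside 19.4% of all genes. In 3 genes all E861A livers were below, beside 14.5% of all genes, and the genotypes overlapped in the remaining 39.

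**Figure D1:**
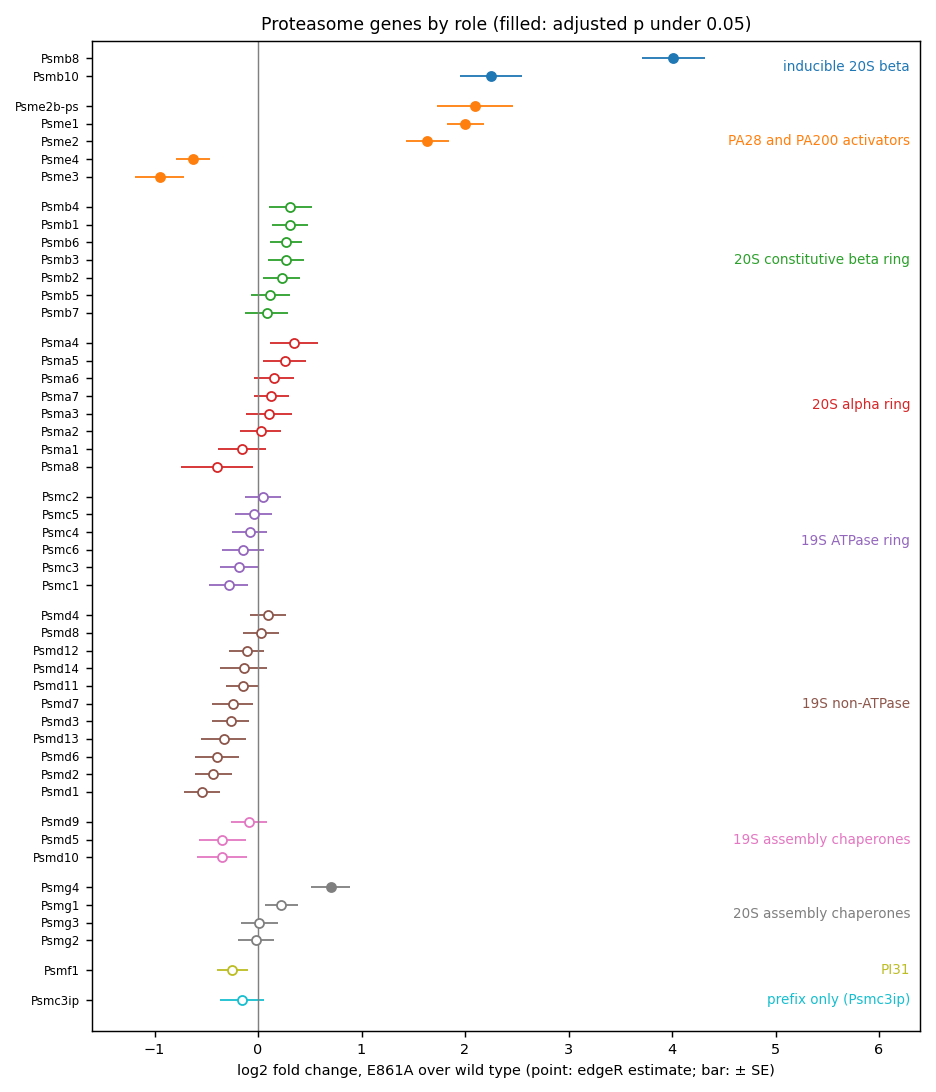
Log2 fold change of E861A over wild type for the 48 tested proteasome genes, grouped by role, as the edgeR estimate (point) with its standard error (bar). Filled points passed an adjusted p of 0.05. The inducible subunits and 3 activator genes lie between 1.64 and 4.01, while the standard ring and cap subunits lie between -0.54 and 0.35.

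RefSeq windows on GRCm38.p6, running from 250 bases before to 50 bases after the gene's start, were searched on both strands for the interferon-stimulated response element and the gamma-activated site. The windows of the 3 genes that were higher in E861A livers and hold such a motif are shown on the gene's strand, with the match in capitals. They are chr17:34197945-34198244 (+) for Psmb8, chr14:55578244-55578543 (+) for Psme1 and chr13:34162714-34163013 (+) for Psmg4.
Psmb8: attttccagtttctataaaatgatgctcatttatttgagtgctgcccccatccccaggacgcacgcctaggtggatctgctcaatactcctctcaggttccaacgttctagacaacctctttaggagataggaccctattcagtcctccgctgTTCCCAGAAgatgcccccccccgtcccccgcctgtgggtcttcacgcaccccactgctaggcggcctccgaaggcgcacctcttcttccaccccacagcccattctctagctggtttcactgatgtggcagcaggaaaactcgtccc
Psme1: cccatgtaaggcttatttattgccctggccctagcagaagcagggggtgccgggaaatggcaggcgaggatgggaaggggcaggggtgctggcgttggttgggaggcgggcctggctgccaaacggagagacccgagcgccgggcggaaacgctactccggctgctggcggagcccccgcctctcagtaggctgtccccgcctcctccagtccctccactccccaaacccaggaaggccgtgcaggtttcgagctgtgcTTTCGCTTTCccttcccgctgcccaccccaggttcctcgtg
Psmg4: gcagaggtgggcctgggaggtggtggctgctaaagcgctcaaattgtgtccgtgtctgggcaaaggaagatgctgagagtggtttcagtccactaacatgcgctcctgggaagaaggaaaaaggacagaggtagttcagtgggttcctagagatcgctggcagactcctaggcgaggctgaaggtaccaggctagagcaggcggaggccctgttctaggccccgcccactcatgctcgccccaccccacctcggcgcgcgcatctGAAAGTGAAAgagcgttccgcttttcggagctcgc
The match in Psmb8 is of the gamma-activated type and starts 97 bases before the gene's start. Psme1 and Psmg4 hold the response element, starting 9 and 15 bases after it. Windows were matched for 41 proteasome genes, and 5 of them held the response element, namely Psmb3, Psmd4, Psmd9, Psme1 and Psmg4, while 3.99% of all 27025 genes with a RefSeq window did, a gene being counted if any of its windows held the motif. The gamma-activated motif was in 3 of the 41, Psmb8, Psmd2 and Psmg1, and in 9.55% of all genes. Of these 8 genes, 5 did not pass the expression test. The windows of Psmb9, Psmb10 and Psme2 held neither set of letters, which says nothing of sites outside the window. The antioxidant response element is read by factors that raise standard subunits when proteasome capacity is short. A loose pattern of it was searched as well and was in 24 of the 41 genes and in 45.0% of all genes. A pattern this common does not mark a gene as read by these factors.

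Psmb8, Psmb9 and Psmb10 are the inducible beta 5, beta 1 and beta 2 subunits. Psmb8 (chr17:34334666-34338399 in NCBIM37, + strand) had 65.0, 52.1 and 39.0 CPM in E861A livers 6, 16 and 19, against 2.39, 4.48 and 2.81 CPM in wild-type livers 2, 15 and 17. The lowest E861A liver lay far above the highest wild-type liver. The log2 fold change was 4.01 (SE 0.31), a 16.1-fold difference, with an adjusted p of 0.000183 by edgeR's quasi-likelihood test. Its exons share 187 bases, 6.83% of them, with Gm20496 on the opposite strand, and the sources used here do not state whether strand was used in counting. In RPKM, which is CPM divided by exon length in kilobases from GENCODE M1, Psmb8 averaged 19.01 ± 4.74 in E861A livers and 1.18 ± 0.41 in wild-type livers (SD, n = 3 each).

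Psmb10 (chr8:108459628-108462292, - strand) had 226.8, 133.6 and 109.4 CPM in E861A livers 6, 16 and 19, against 26.0, 37.7 and 35.2 CPM in wild-type livers 2, 15 and 17. All E861A livers were above all wild-type livers, and E861A liver 6 stood highest. This was a log2 fold change of 2.25 (SE 0.30), or 4.75-fold, with an adjusted p of 0.00347 by edgeR's quasi-likelihood test. Between the male livers alone, with a single wild-type liver, the log2 fold change was 2.60 and the edgeR adjusted p was 0.0861. Per length, Psmb10 averaged 123.3 ± 48.8 RPKM in E861A livers and 25.9 ± 4.84 RPKM in wild-type livers (SD, n = 3 each).

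Psmb9 is listed at 0 reads in every library under both of its gene records. These records share 3647 exonic bases, which is 99.7 to 100% of each, and overlap exons of Tap1 on the other strand by 200 and 212 bases. No level and no fold change can be given for Psmb9 from these counts. The thymus subunit Psmb11 had 6, 7 and 14 reads in E861A livers 6, 16 and 19, against 6, 4 and 2 reads in wild-type livers 2, 15 and 17, and was too low to test. The second Psmd14 record also had no read, and its 338 exonic bases all lie within the first record.

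The constitutive partners did not pass the test. Psmb5, the standard beta 5 subunit with chymotrypsin-like activity, had 101.3, 79.4 and 67.3 CPM in E861A livers 6, 16 and 19, against 64.0, 85.1 and 79.4 CPM in wild-type livers 2, 15 and 17. The genotypes overlapped, with a log2 fold change of 0.12 (SE 0.19) and an edgeR adjusted p of 0.757. Psmb6, the standard beta 1 subunit, had 193.9, 165.3 and 148.6 CPM in E861A livers, against 129.2, 150.5 and 142.2 CPM in wild-type livers, with a log2 fold change of 0.27 (SE 0.15, edgeR adjusted p 0.312). Psmb7, the standard beta 2 subunit, had 301.8, 210.1 and 192.0 CPM in E861A livers, against 197.0, 252.2 and 215.6 CPM in wild-type livers, with a log2 fold change of 0.08 (SE 0.21, edgeR adjusted p 0.855). In all 3 genes E861A liver 6 was the highest library and the ranges of the genotypes overlapped.

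The change in the balance of each pair was read within each library, as the inducible subunit's share of the 2 genes' summed reads per kilobase. Psmb8 made up 17.8, 18.1 and 16.3% of its pair with Psmb5 in E861A livers 6, 16 and 19, against 1.25, 1.75 and 1.18% in wild-type livers 2, 15 and 17. The share spanned 16.3 to 18.1% among the E861A livers, while their Psmb8 levels ran from 39.0 to 65.0 CPM. Psmb10 made up 41.8, 37.8 and 35.3% of its pair with Psmb7 in E861A livers, against 11.2, 12.5 and 13.5% in wild-type livers. The mean log2 ratio differed by 3.92 for Psmb8 over Psmb5 and by 2.13 for Psmb10 over Psmb7. No library of one genotype reached the range of the other. A two-sided exact permutation test gave p = 0.1 for each of the 4 ratios tested, 0.1 after Benjamini-Hochberg adjustment, which is the smallest value that 3 livers against 3 allow. Both standard subunits stayed the more abundant transcript of their pair per length in every library.

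**Figure D2:**
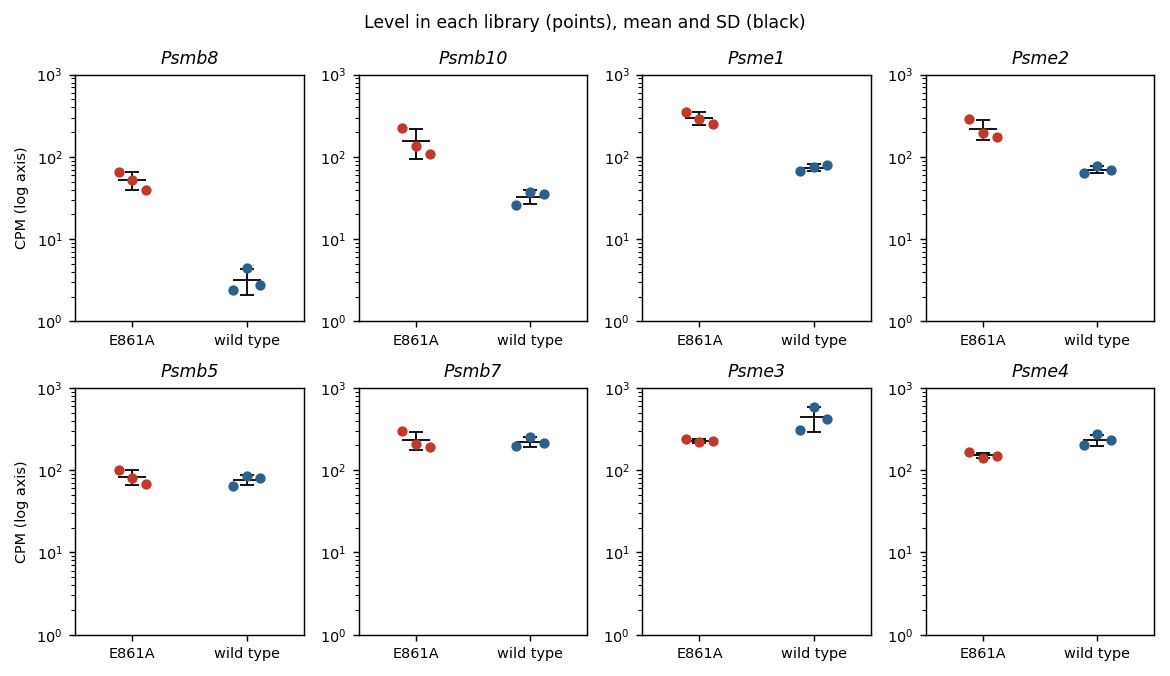
CPM on a log axis in each of the 6 livers (points), with mean and SD (black), for 4 interferon-responsive genes in the top row and 4 related genes in the bottom row. Psmb8, Psmb10, Psme1 and Psme2 are separated between E861A and wild type, Psmb5 and Psmb7 overlap, and Psme3 and Psme4 are lower in E861A livers.

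PA28 and PA200 are the activators that open the core in place of the 19S cap. Psme1, PA28 alpha (chr14:56196960-56200366, + strand), had 353.7, 288.7 and 247.5 CPM in E861A livers 6, 16 and 19, against 66.7, 75.4 and 80.0 CPM in wild-type livers 2, 15 and 17. The genotypes were far apart, with a log2 fold change of 2.002 (SE 0.18, 4.01-fold) and an edgeR adjusted p of 0.000381. Psme2, PA28 beta (chr14:56206278-56209950, - strand, close to Psme1), had 285.2, 192.9 and 175.5 CPM in E861A livers, against 63.0, 77.3 and 70.0 CPM in wild-type livers. It also separated the genotypes, with a log2 fold change of 1.64 (SE 0.21, 3.11-fold) and an edgeR adjusted p of 0.00273. Between the male livers alone its log2 fold change was 1.801 and the edgeR adjusted p was 0.0861. Per length the subunits were close to each other, at 134.3 ± 24.2 RPKM for Psme1 and 123.5 ± 33.4 RPKM for Psme2 in E861A livers, and at 33.5 ± 3.06 RPKM and 39.7 ± 4.05 RPKM in wild-type livers (SD, n = 3 each).

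Psme2b-ps is an intronless copy of Psme2 on chromosome 11, so its reads may belong to Psme2 and its value is uncertain. Its exonic bases also overlap 9930111J21Rik1 on the same strand by 41 bases, 4.9% of their length. Psme2b-ps had 1.23, 1.55 and 1.79 CPM in E861A livers 6, 16 and 19, against 0.25, 0.39 and 0.42 CPM in wild-type livers 2, 15 and 17. The genotypes were apart, at a level far below that of Psme2. Its log2 fold change was 2.09 (SE 0.37) and the edgeR adjusted p was 0.0106, and the call was lost with sex as a covariate (adjusted p 0.0506), in male livers alone (0.154), without E861A liver 16 (0.0602) and without wild-type liver 17 (0.0534).

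Psme3 and Psme4 went the other way. Psme3, PA28 gamma, forms a separate activator in the nucleus. It had 240.0, 217.4 and 222.9 CPM in E861A livers 6, 16 and 19, against 307.4, 590.9 and 415.1 CPM in wild-type livers 2, 15 and 17. The E861A livers lay within a narrow range below all wild-type livers, and wild-type liver 15 was the highest. The log2 fold change was -0.95 (SE 0.24, edgeR adjusted p 0.039), and it was -0.67 without wild-type liver 15 (edgeR adjusted p 0.0958) and -0.43 between male livers alone (edgeR adjusted p 0.469). The call was lost in 7 of 15 alternatives, among them the fit with sex as a covariate and each fit without one library other than wild-type liver 2.

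Psme4, which encodes PA200, a monomeric activator, had 164.3, 142.4 and 149.1 CPM in E861A livers 6, 16 and 19, against 200.7, 272.0 and 231.5 CPM in wild-type livers 2, 15 and 17. All E861A livers were below all wild-type livers. The log2 fold change was -0.63 (SE 0.16, edgeR adjusted p 0.0426), and between male livers alone it was -0.39 (edgeR adjusted p 0.502). The call was lost in 8 of 15 alternatives.

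With PA28 alpha higher and PA28 gamma lower, the order of the PA28 genes per length was reversed. Psme1 made up 66.3, 63.9 and 59.7% of its summed level with Psme3 in E861A livers 6, 16 and 19, against 22.5, 14.6 and 20.5% in wild-type livers 2, 15 and 17. Psme2 made up 66.5, 59.7 and 56.8% of its summed level with Psme3 in E861A livers, against 25.5, 17.9 and 21.99% in wild-type livers. Each was the more abundant transcript in every E861A liver and the less abundant one in every wild-type liver. The mean log2 ratios differed by 2.89 and 2.51, with the same exact permutation p of 0.1.

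**Figure D3:**
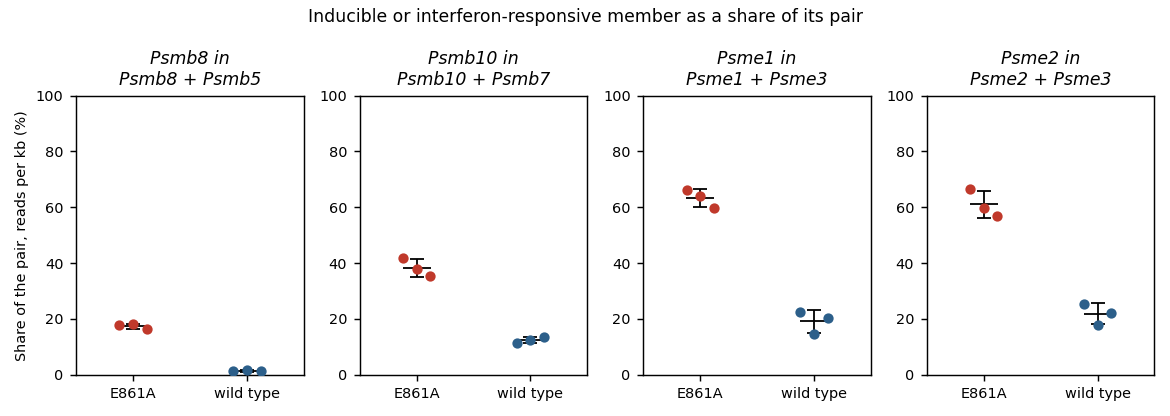
Share (%) that Psmb8, Psmb10, Psme1 and Psme2 take of their pair's summed reads per kilobase in each liver (points), with mean and SD (black). Psmb8 averages 17.4% in E861A and 1.39% in wild-type livers, Psmb10 38.3% and 12.4%, Psme1 63.3% and 19.2%, and Psme2 61.0% and 21.8%.

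The standard core and cap genes were examined next. Of 32 tested genes for standard 20S and 19S subunits none passed the threshold, with 16 above 0 and 16 below. Of all 16511 genes tested, 8794 were above 0 and 7717 below. At an unadjusted edgeR p of 0.05 the count was 2 of 32, Psmd1 and Psmd2, beside 27.7% of all genes. DESeq2 called Psmd1 alone, beside 18.4% of all genes, and limma-voom called 0, beside 11.9%. Without E861A liver 6, edgeR called Psmd6 lower, in a fit where 502 of 17023 genes tested were lower. Without wild-type liver 2 it called Psmd1 and Psmd2 lower, in a fit where 1502 of 16761 genes were lower. The 32 genes had a median log2 fold change of -0.01 and a range of -0.54 to 0.35. The 7 constitutive beta genes were all above 0 without passing the test, with a median of 0.27 and Psmb4 at the top with 0.31 (SE 0.21, edgeR adjusted p 0.385). Of the 8 alpha genes 6 were above 0, with a median of 0.12. Psma4 was at the top with 0.35 (SE 0.23) and Psma8, the alpha subunit of germ cells, at the bottom with -0.40 (SE 0.35). In the 19S cap the signs were mostly negative in the main fit, while the median levels of the genotypes overlapped. The median of the non-ATPase genes was 174.9, 136.1 and 126.2 CPM in E861A livers 6, 16 and 19. It was 135.5 CPM in male wild-type liver 2, and 169.3 and 152.1 CPM in female wild-type livers 15 and 17. With sex as a covariate the ATPase genes Psmc1 and Psmc2 were at -0.09 and 0.29. A split between core and cap was not tested. Of the 6 ATPase genes 1 was above 0, from Psmc2 at 0.05 (SE 0.18) to Psmc1 at -0.28 (SE 0.19), with a median of -0.11. Of the 11 non-ATPase genes 2 were above 0, with a median of -0.25, and Psmd4, a ubiquitin receptor, was at the top with 0.10 (SE 0.18).

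Psmd1, a scaffold subunit of the cap, had the lowest value of all standard subunits. It had 242.2, 204.2 and 210.5 CPM in E861A livers 6, 16 and 19, against 261.7, 365.6 and 329.4 CPM in wild-type livers 2, 15 and 17. All E861A livers were below all wild-type livers. A log2 fold change of -0.54 (SE 0.17) had an edgeR adjusted p of 0.0831 and passed the threshold in 4 of 15 alternatives. Psmd1 exons share 405 bases with Armc9 and 252 with Htr2b, 8.07% and 5.02% of their length.

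A single library set much of the spread in the core. E861A liver 6 was the highest of the 6 libraries in 14 of 14 standard 20S genes, Psma8 aside, while wild-type liver 2 was the lowest in 9 of them. Over all 32 standard subunits E861A liver 6 was highest in 19 and wild-type liver 15 in the other 13. The median level of the 32 genes was 207.6, 158.8 and 148.6 CPM in E861A livers 6, 16 and 19, against 146.7, 184.3 and 171.2 CPM in wild-type livers 2, 15 and 17. The genotypes overlapped. Without E861A liver 6, the log2 fold changes of Psmb5 and Psmb7 were -0.056 and -0.14, with edgeR adjusted p of 0.89 and 0.638.

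**Figure D4:**
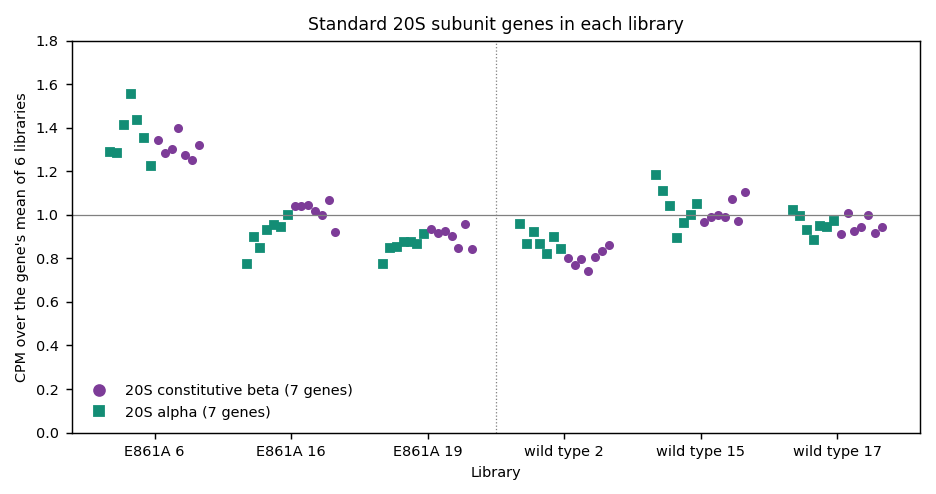
CPM of each standard 20S gene over its own mean of the 6 libraries (1.0, grey line), for 7 constitutive beta genes (circles) and 7 alpha genes (squares). In E861A liver 6 all 14 genes lie above those of every other library.

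Assembly factors were mostly within the spread. Psmg4, a chaperone of the core's alpha ring, had 23.8, 22.5 and 17.9 CPM in E861A livers 6, 16 and 19, against 10.8, 15.2 and 13.4 CPM in wild-type livers 2, 15 and 17. The genotypes did not overlap, though E861A liver 19 and wild-type liver 15 were close. The log2 fold change was 0.70 (SE 0.19, 1.63-fold) with an edgeR adjusted p of 0.0494, and the call was lost in 10 of 15 alternatives. The other 3 core chaperones did not pass, with Psmg2 the lowest at -0.02 (SE 0.18). The 19S chaperones Psmd9, Psmd5 and Psmd10 were all below 0 without passing, from -0.09 (SE 0.18) for Psmd9 to -0.35 (SE 0.24) for Psmd10. PI31, encoded by Psmf1, had a log2 fold change of -0.25 (SE 0.15, edgeR adjusted p 0.335). Psmc3ip shares only the prefix and encodes a recombination factor of germ cells, and its log2 fold change was -0.16 (SE 0.21).

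The authors' deposited table of their own comparison lists 48 of the proteasome records. It has 6 higher and 2 lower at an adjusted p of 0.05, and these are the same 8 genes in the same direction. That comparison used the same 6 livers, so the match is not separate evidence. In the authors' deposited table Psmb8 has a log2 fold change of 4.05 with an adjusted p of 0.000235, and Psmg4 one of 0.72 with 0.042.

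Genes upstream and downstream of the inducible subunits were set beside them. Their counts stand beside 7.77% of all genes higher and 4.26% lower. Among 9 interferon regulators of these subunits 7 were higher and none lower, with a median log2 fold change of 2.96 against 0.04 over all genes. Nlrc5, the transactivator of MHC class I genes, averaged 58.9 ± 4.73 CPM in E861A livers and 0.20 ± 0.08 CPM in wild-type livers (SD, n = 3 each), with a log2 fold change of 8.17 (edgeR adjusted p 4.26e-06). Stat2, a signal carrier of the type I interferon receptor, averaged 330.3 ± 40.9 CPM in E861A livers and 30.04 ± 2.61 CPM in wild-type livers, with a log2 fold change of 3.46 (edgeR adjusted p 1.75e-05). Of 14 genes that supply peptides to MHC class I, 8 were higher and none lower, with a median of 1.55. Tap1, a subunit of the peptide transporter, averaged 196.1 ± 21.2 CPM in E861A livers and 4.43 ± 1.47 CPM in wild-type livers, with a log2 fold change of 5.47 (edgeR adjusted p 1.8e-05). B2m, the light chain of MHC class I, averaged 1311 ± 319.0 CPM in E861A livers and 134.4 ± 17.4 CPM in wild-type livers, with a log2 fold change of 3.29 (edgeR adjusted p 9.89e-05).

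Genes that supply substrates or control standard subunits were counted in the same way, beside 7.77% of all genes higher and 4.26% lower. Of 16 genes of ubiquitin supply and NRF1, the factor that raises standard subunits, 1 was higher and 2 were lower, with a median log2 fold change of -0.10. Sqstm1, an adaptor that carries ubiquitinated cargo to autophagy, was higher by 1.09 (SE 0.22, edgeR adjusted p 0.0181), and the call was lost in male livers alone (0.0923), without E861A liver 16 (0.0733) and without wild-type liver 17 (0.0953). Ddi2, the protease that activates NRF1, was lower at -0.59 (SE 0.16, edgeR adjusted p 0.0477), a call kept in 6 of 15 alternatives. Ubqln1, a shuttle of ubiquitinated proteins named here after its value was seen, was lower at -0.58 (SE 0.16, edgeR adjusted p 0.0496), also a call kept in 6 of 15 alternatives. In male livers alone Ddi2 was at -0.40 and Ubqln1 at -0.30, with edgeR adjusted p of 0.525 and 0.577. Both calls were lost without any 1 library other than wild-type liver 2. Of 13 other proteasome-bound proteins 1 was lower and none higher, with a median of -0.06. This was Ube3c, a ubiquitin ligase that sits on the proteasome, at -0.69 (SE 0.15, edgeR adjusted p 0.0217). Its call was lost with sex as a covariate (0.175), in male livers alone (0.398) and without E861A liver 16 (0.0751), wild-type liver 15 (0.0877) or wild-type liver 17 (0.117). Zfand5, an activator of the 26S proteasome, had a log2 fold change of 0.31 (SE 0.15, edgeR adjusted p 0.219).

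Levels of cell markers were set beside those of the proteasome genes. Immune cells carry inducible subunits, so their markers were summed. Counts of markers past the threshold stand beside 7.77% of all genes higher and 4.26% lower. The macrophage and monocyte markers summed to 336.5 to 418.4 CPM in E861A livers and 308.0 to 388.1 CPM in wild-type livers, with 2 of 11 tested higher, 1 lower and Cd163 under 1 CPM in all libraries. The granulocytic markers summed to 354.3 to 624.1 CPM in E861A livers and 214.1 to 390.6 CPM in wild-type livers, with 2 of 9 higher. The dendritic markers summed to 14.3 to 27.4 CPM in E861A livers and 10.5 to 18.98 CPM in wild-type livers, with 1 of 6 tested higher and H2-Aa, Siglech and Xcr1 under 1 CPM in all libraries.

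Lymphoid markers summed to 26.4 to 29.9 CPM in E861A livers and 10.4 to 13.6 CPM in wild-type livers, with 1 of 7 tested higher, Lck, and 1 lower, Rag1. Lck made most of this gap, at 20.7 CPM in E861A livers and 5.16 CPM in wild-type livers, while the other 11 markers summed to 7.44 CPM in E861A livers and 6.74 CPM in wild-type livers. The lymphocyte genes Cd3e, Cd79a, Igll1, Pax5, Rag2 and Vpreb1 were under 1 CPM in all libraries. Stress genes of tissue dissociation summed to 572.9 to 1292 CPM in E861A livers and 110.1 to 327.0 CPM in wild-type livers, with 6 of 10 higher. The lymphoid and stress counts stand beside 7.77% of all genes higher and 4.26% lower. The part of these markers in the higher levels of the inducible subunits and PA28 was not tested.

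Erythroid markers summed to 3559 to 4055 CPM in E861A livers and 6890 to 14287 CPM in wild-type livers, with 6 of 10 lower and none of the listed genes near 0. Hepatoblast markers summed to 20481 to 29892 CPM in E861A livers and 16423 to 20712 CPM in wild-type livers, with 5 of 10 higher. Endothelial markers summed to 383.9 to 532.4 CPM in E861A livers and 349.4 to 447.4 CPM in wild-type livers, with 3 of 8 higher and 1 lower. Mesenchymal markers summed to 724.8 to 1780 CPM in E861A livers and 545.1 to 1983 CPM in wild-type livers, with none of 9 past the threshold. Counts in these lists stand beside 7.77% of all genes higher and 4.26% lower. The part of these markers in the lower levels of Psme3 and Psme4 was not tested.

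RNA editing within the proteasome transcripts was read from the deposited table of 6012 sites, which gives for each site the coverage and the edited share in every library. The table held 23 sites in 8 proteasome genes, of which 22 had at least 10 reads in each genotype. Of these, 17 had a lower pooled editing level in E861A livers and 5 a higher one. The same split over all sites is not given here, so this count is not a result about proteasome genes. Edited and unedited reads were added up within each genotype and compared by Fisher's exact test, adjusted by the Benjamini-Hochberg method across 3883 sites. By this test 3 of the 22 were lower in E861A livers, beside 16.7% of all sites, and none was higher. Summed reads treat the 3 livers of a genotype as 1 pool, so the p-values do not carry the spread between livers. The sites that passed are shown with 10 bases of NCBIM37 on either side, on the gene's strand, with the edited adenosine as a capital.
Psma3, chr12:72095606-72095626 (+): caggggacatAggttcaattc
Psmd9, chr5:123698665-123698685 (+): aatcctgactAtcctggaatt
Psmd6, chr14:14951781-14951801 (-): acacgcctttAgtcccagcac

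Psma3 encodes an alpha-ring subunit, and its site lies in the 3′ UTR, within an intron of 3110056K07Rik on the opposite strand. Its editing level was 2.86, 0 and 12.1% in E861A livers 6, 16 and 19, against 36.1, 50.7 and 21.6% in wild-type livers 2, 15 and 17. All E861A livers were below all wild-type livers, and E861A liver 19 kept 8 edited reads of 66. Pooled, 10 of 164 reads were edited in E861A livers (6.10%, 95% Wilson interval 3.35 to 10.9%) and 79 of 209 in wild-type livers (37.8%, 31.5 to 44.5%), with an adjusted p of 2.87e-12 by Fisher's exact test. The Psma3 transcript itself had a log2 fold change of 0.11 and did not pass the expression test. Intervals and limits from reads cover counting error only.

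Psmd9 encodes a chaperone of the 19S base, and its site is also in the 3′ UTR. Its editing level was 0% in all 3 E861A livers, against 4.69, 2.78 and 1.09% in wild-type livers 2, 15 and 17. Pooled, 0 of 615 reads were edited in E861A livers (95% Wilson interval 0 to 0.621%). In wild-type livers 16 of 555 were edited (2.88%, 95% Wilson interval 1.78 to 4.63%), with an adjusted p of 7.48e-05 by Fisher's exact test.

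The Psmd6 site lies in an intron of this cap subunit. Its editing level was 0% in all 3 E861A livers, against 17.6, 8 and 18.8% in wild-type livers 2, 15 and 17. Pooled, 0 of 73 reads were edited in E861A livers, which allows a level of up to 4.11%, and 8 of 58 in wild-type livers (13.8%, 95% Wilson interval 7.16 to 24.9%), with an adjusted p of 0.00876 by Fisher's exact test. The call was lost without E861A liver 16 or without E861A liver 19. None of the 8 genes with a listed site was among the genes that passed the expression test, beside 7.77% of all genes higher and 4.26% lower. A link between editing and transcript level was not tested.

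**Figure D5:**
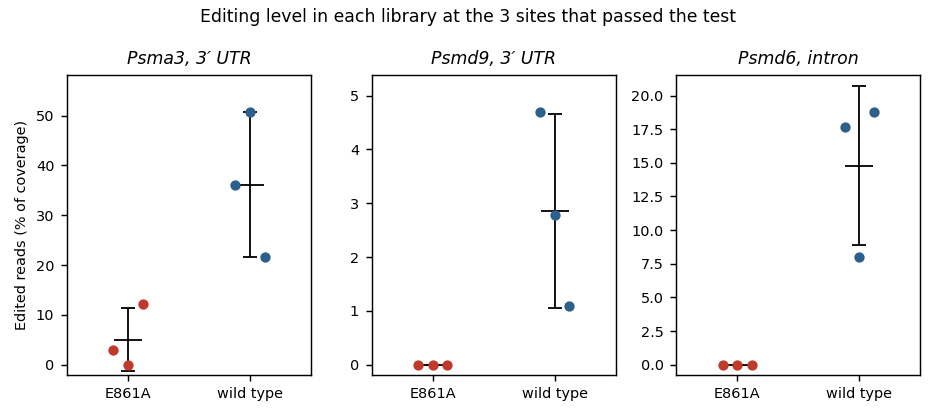
Editing level (edited reads as % of coverage) in each liver (points), with mean and SD (black), at the 3 proteasome sites past the threshold. The axes differ. E861A livers lie at 0 for Psmd9 and Psmd6 and between 0 and 12.1% for Psma3, below every wild-type liver.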

How the data were processed

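RNA-seq of 6 fetal livers was analysed. The authors deposited raw read counts per Ensembl gene, which were used as they stand. Their site table gives, per the file headers, the covering read count and the edited fraction at each site. The authors' own comparison gives a log2 fold change and an adjusted p-value per gene, as wild type over mutant, and its signs were turned round here. The tools named in the submitters' processing notes are edgeR, limma, Cufflinks, HTSeq, BWA, SAMtools (0.1.19), Bowtie2 (2.1.0.0), TopHat2 (2.0.8) and Trimmomatic (0.30), with genome builds NCBIM37 and mm9. Strand use is not given in the sources used here.

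Counts were tested with edgeR 4.0.16 (TMM, filterByExpr, robust quasi-likelihood fit, no covariate) in R 4.3.3, with Benjamini-Hochberg adjustment over all genes tested. DESeq2 1.42.0 and limma 3.58.1 (voom) were alternatives, together with other scalings, other filters, sex and each library left out. Totals run from 35280460 to 43733715 reads, and chi-square per degree of freedom between libraries of a genotype was 40.3 or more, so no library was counted as a copy. RPKM uses exon lengths from GENCODE M1. Ratios used reads per kilobase plus a prior count of 0.5, and Psmb9, at 0 reads, left 4 of 5 planned ratios. Edited reads were recovered as level times coverage (within 2.32e-06 of whole numbers) and tested with SciPy 1.17.1 where both genotypes had 10 or more reads. The edgeR and Fisher tests were also run on simulated data with known changes. The simulated editing reads had no spread between livers. Simulated counts had the same relative spread for every gene and no sex effect. These runs do not show how the tests do under the spread between these livers.

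Proteasome genes, gene lists and tests were chosen with earlier results of these data known. Named with values were the inducible subunits, PA28 and PA200 genes and their partners, other genes past the threshold, the extremes of each role group and the 2 smallest p-values of each pathway list. The labels do not give litters, so p-values other than those of Fisher's exact test measure the spread between these livers. Fisher's p-values, from summed reads, do not carry that spread.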

Additional observations from a re-analysis of the deposited data

How the results depend on the processing

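No paired analysis was possible because E861A and wild-type livers carry no liver number in common. In every one of 15 alternatives Psmb8 (log2 fold change 3.82 to 4.45) and Psme1 (1.86 to 2.16) stayed past the threshold. Psmb10 (1.88 to 2.60) and Psme2 (1.39 to 1.801) were lost between male livers alone, where 2 proteasome genes were higher and 0 lower. The count of lower proteasome genes was 1 with no filter on low counts, where 732 of 25744 genes tested were lower. With sex as a covariate it was 0, where 39 of 16511 were lower. Leaving out single libraries gave 0 to 4. The 1 called without E861A liver 6 was Psmd6, where 502 of 17023 genes were lower. The 4 without wild-type liver 2 were Psmd1, Psmd2, Psme3 and Psme4, where 1502 of 16761 genes were lower. All E861A livers are male, so sex and genotype are partly tied. Among genes that never passed, leaving out single libraries gave -0.056 to 0.23 for Psmb5, -0.14 to 0.19 for Psmb7, -0.069 to 0.15 for Psmc2, -0.048 to 0.22 for Psmd4, -0.22 to 0.011 for Psmd9 and -0.16 to 0.073 for Psmg2. Psmd9 was 0.21 with sex as a covariate and 0.22 in male livers. Psmg2 was 0.024 with upper-quartile factors, 0.056 with library totals, 0.28 with sex and 0.29 in male livers. The causes were not tested. The difference of each log2 ratio moved by less than the spread between replicates in each alternative run, and the count of edited sites was 2 or 3. The planned ratio of Psmb9 to Psmb6 had no reads to compute it from. DESeq2 called 6 proteasome genes higher and 3 lower, the third being Psmd1. Among all 16511 genes tested it called 1499 higher and 1538 lower.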
